A study of Mus musculus with 2 samples.

Results

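Interferon-stimulated genes are the genes that cells switch on when an interferon binds its receptor. Their levels were described here for 39 of them, chosen by name, among the 31053 genes of the matrix, over single LSK cells of the mouse bone marrow. LSK cells (lineage-negative, Sca-1-positive, c-Kit-positive) are the sorted compartment that holds the haematopoietic stem cells and the multipotent progenitors. The cells came from female C57BL/6JRj mice, 4 young animals of 3 to 5 months and 4 old animals of 22 to 28 months, pooled into 1 CITE-Seq library per age, and the labels name no genetic change or treatment in either group. CITE-Seq reads the RNA of a cell together with antibody tags, here against CD150, CD48 and CLCA3A1.

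The barcodes end in the suffix 1 or 2 for the library. The labels do not say which suffix belongs to which age. The ages were therefore not compared, and the suffixes are described side by side. With 1 library per age there was no test across samples. Each interval given is a 95% interval of counting error alone (exact Poisson for a level, exact conditional binomial for a ratio, Clopper-Pearson for a share).

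Of 4688 cells, 4068 had under 10% mitochondrial UMIs (unique molecular identifiers, each a counted RNA molecule) and over 1500 detected genes, 1524 in suffix 1 and 2544 in suffix 2. The suffixes shared 0 barcodes. The 3986 kept cells with tags were divided per suffix at the 75th percentile of the CD150 tag and the 25th percentile of the CD48 tag. CD150-high CD48-low is the usual surface phenotype of stem cells, and CD150-low CD48-high, the reference gate here, that of more committed progenitors. In the order CD150-high CD48-low, CD150-low CD48-low, CD150-high CD48-high and CD150-low CD48-high, the gates held 172, 204, 209 and 912 cells in suffix 1 and 383, 250, 241 and 1615 cells in suffix 2. Sets of values over the gates follow this order throughout.

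The RNA went with the tags. Levels are given as CPM, the summed UMIs of a gene over the cells of a gate, scaled to 1e6 of all their UMIs. Slamf1, which encodes CD150, had 16.9, 1.19, 8.16 and 0.397 CPM in suffix 1 and 64.2, 11.1, 51.1 and 2.53 in suffix 2. Procr, a stem cell surface receptor, had 115, 106, 58.4 and 37.7 CPM in suffix 1 and 246, 199, 181 and 57.5 in suffix 2, and Flt3, a receptor of multipotent progenitors, 13.3, 151, 71.3 and 255 CPM in suffix 1 and 2.09, 17.4, 24.1 and 145 in suffix 2. The gates differed in more than their tags: a list of 5 cycling genes summed to 182.9 and 20.9 CPM in CD150-high CD48-low against 864 and 804 in CD150-low CD48-high (suffix 1, suffix 2), and the median depth was 12917 and 13477 UMIs against 16356 and 16320. In CD150-low CD48-low the median depth was 11943 and 11203 UMIs, the lowest of the gates, and in CD150-high CD48-high 19922 and 15595. The gates were also set relative to each suffix. The median CD150 count of the CD150-high CD48-low cells was 189.5 tags in suffix 1 and 775 in suffix 2, and their median CD48 count was 111 and 20, so a gate name does not stand for the same tag counts in both.

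Type I interferons act through the receptor chains Ifnar1 and Ifnar2 and the kinases Jak1 and Tyk2. These activate a complex that holds Stat2 and Irf9 and binds the interferon-stimulated response element (ISRE), while interferon gamma acts at the gamma-activated site (GAS). The targets block viral entry, translation and replication, and both interferon types are known to act on haematopoietic stem cells. Sca-1, one of the markers of the sort, is itself encoded by an interferon-responsive gene, Ly6a.

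The sites that define this programme can be read in the promoters. RefSeq promoters (GRCm38.p6, 250 bases before to 50 bases after a start site that the promoter table uses, in some genes more than 1) were found for 30 of the 39 genes. On either strand, the core GAAANNGAAA of the ISRE was present in 18 of 30 (60%), against 3.99% of all 27025 genes with a promoter, and the GAS core TTCNNNGAA, which reads the same on both strands, in 9 of 30 (30%), against 9.55%. Both were present in 6 of 30, Bst2, Gbp7, Igtp, Irgm2, Ifitm3 and Eif2ak2, against 0.614%. A match is a run of letters and not a measured binding site. The stretches below belong to the genes on which the results turn: 4 genes with a large share of their UMIs in few cells (Ifit1, Ifit3, Isg15 and Rsad2), 3 of the GTPases called between the gates or the suffixes (Gbp2, Igtp and Irgm2), and Ifitm3, which held the most UMIs. They are written along the strand of the gene with the matched bases in capitals, and a GAAANNGAAA match on the other strand reads TTTCNNTTTC.
Ifit1, chr19:34640770-34640828, plus strand: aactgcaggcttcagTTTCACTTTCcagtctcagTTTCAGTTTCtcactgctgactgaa
Ifit3, chr19:34583358-34583431, plus strand: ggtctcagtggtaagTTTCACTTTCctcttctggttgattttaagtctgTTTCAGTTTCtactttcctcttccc
Isg15, chr4:156200860-156200911, minus strand: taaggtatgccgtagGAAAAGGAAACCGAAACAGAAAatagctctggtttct
Rsad2, chr12:26456548-26456587, minus strand: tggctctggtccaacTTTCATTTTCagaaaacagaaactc
Gbp2, chr3:142620589-142620628, plus strand: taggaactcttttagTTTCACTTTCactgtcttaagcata
Igtp, chr11:58199496-58199546, plus strand: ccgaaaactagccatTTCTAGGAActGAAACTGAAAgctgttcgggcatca
Irgm2, chr11:58214887-58214937, plus strand: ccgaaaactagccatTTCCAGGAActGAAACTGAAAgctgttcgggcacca
Ifitm3, chr7:141010716-141010742, minus strand: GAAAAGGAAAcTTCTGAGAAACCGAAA
Ifit1 and Ifit3 each held 2 ISRE matches. The span that RefSeq gives the gene Ifit3, chr19:34583119-34588982, begins before the start site of its promoter, so that the stretch shown for it lies inside this span, while those of the other genes except Ifitm3 lie before their genes. Isg15 held 3 overlapping ones in a single run. In Igtp and Irgm2, which lie side by side on chromosome 11 (Igtp at chr11:58199556-58207592, Irgm2 at chr11:58214977-58222783), a GAS match stood 2 bases before an ISRE match, and 49 of the 51 bases shown were the same in both genes. In Ifitm3 2 ISRE matches and a GAS match lay together within 27 bases, after the start site.

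One gene carried much of the total. The 39 genes had 229324 of the 71367333 UMIs of the kept cells, 3213 CPM. Ifitm3, a membrane protein that blocks viral entry, had 1406 CPM. Bst2 (tetherin, which holds budding virus at the cell surface) had 227 and Ifi47, an immunity-related GTPase, 117, and these 3 genes held 54.4% of the UMIs of the set. The median gene of the set was at 42.9 CPM. At least 5 CPM were reached by 37 genes, which are the ones called below. Ifit3b and Mx1 stayed under it. Because Ifitm3 could decide any sum, the summed levels of the gates and the ratios between the suffixes are also given without it. Other sums include it unless stated. These 3' UMI counts tally molecules and need no length term.

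**Figure D1:**
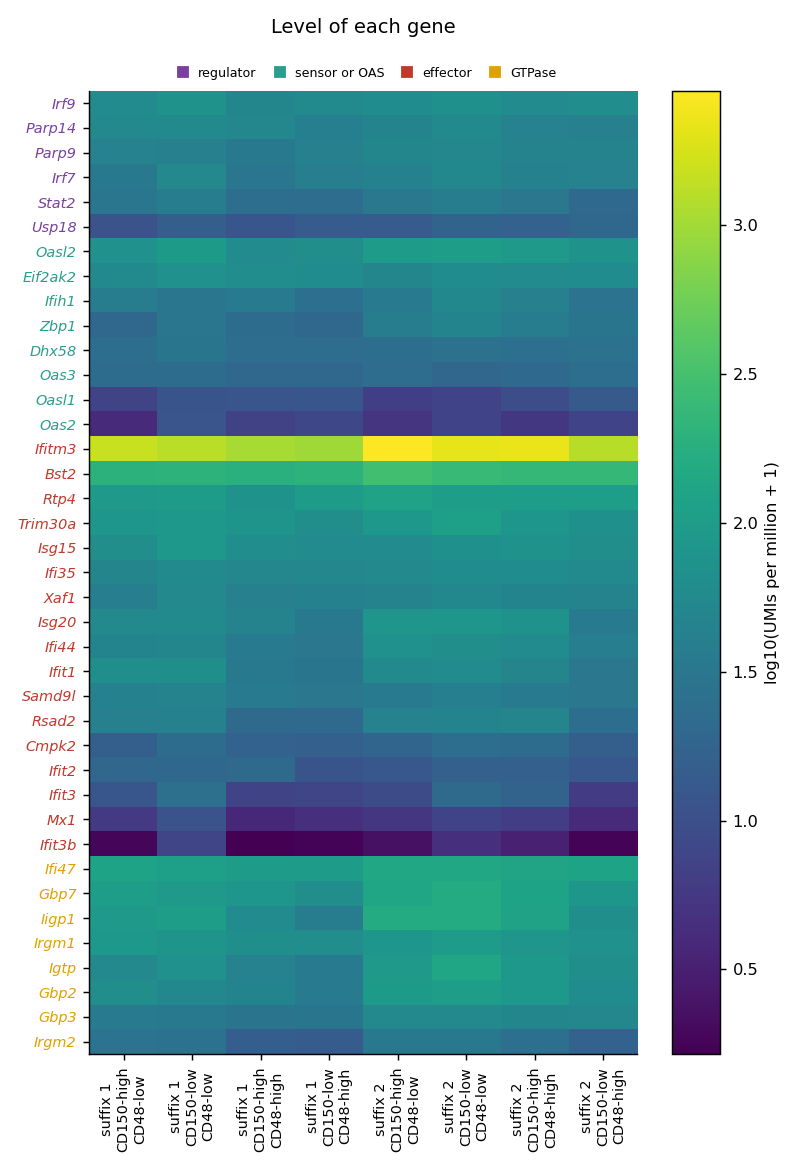
Level of each of the 39 genes (rows, grouped by role, highest first within a role, names coloured by role) in the 4 tag gates of suffix 1 and suffix 2 (columns), as log10 of CPM with 1 added. Ifitm3 was the brightest row in all 8 columns, between 976 and 2815 CPM, and Ifit3b among the darkest.

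The summed level was higher in the CD48-low gates than in the reference gate. It was 3373, 3358, 2629 and 2485 CPM in suffix 1 and 5094, 4608, 4373 and 3054 in suffix 2. The ratio of CD150-high CD48-low to the reference gate was 1.36 (1.32 to 1.39) in suffix 1 and 1.67 (1.65 to 1.69) in suffix 2, and that of CD150-low CD48-low 1.35 (1.32 to 1.38) in suffix 1 and 1.51 (1.48 to 1.54) in suffix 2. For CD150-high CD48-high the ratio was 1.06 (1.04 to 1.08) in suffix 1 and 1.43 (1.41 to 1.45) in suffix 2. The order of the gates was the same in both suffixes, although in suffix 1 the CD48-low gates did not differ beyond counting error, with a ratio of 1.0 (0.974 to 1.04).

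Which CD48-low gate came first turned on Ifitm3. Without it, the sum of the other 38 genes was 1865, 2056, 1568 and 1509 CPM in suffix 1 and 2279, 2481, 2131 and 1788 in suffix 2. CD150-low CD48-low was then the highest gate in both suffixes, and CD150-high CD48-low stood at 0.907 (0.871 to 0.945) of it in suffix 1 and 0.919 (0.892 to 0.946) in suffix 2. Few cells held a large part of the UMIs of CD150-low CD48-low. In suffix 1, 12 of 170 cells of CD150-low CD48-low, each with at least 3 times the median count of the set (at 9000 UMIs per cell), held 28.3% of the UMIs of the 39 genes in that gate, and in suffix 2 6 of 202 held 13.9%. The same share was 18.9% and 8.70% in CD150-high CD48-low, 16.8% and 12.6% in CD150-high CD48-high and 12.02% and 4.36% in the reference gate. Without the 5% of cells richest in the 38 genes, CD150-low CD48-low was no longer the highest gate, at 0.952 (0.908 to 0.999) of CD150-high CD48-low in suffix 1 and 0.983 (0.95 to 1.02) in suffix 2 for those genes. These cells were chosen on the same genes, so their removal lowers most the gate that holds most of them. It therefore cannot decide the order of the gates. With all cells, CD150-high CD48-low had a ratio to the reference gate of 1.24 (1.2 to 1.28) in suffix 1 and 1.27 (1.25 to 1.30) in suffix 2 without Ifitm3. In cells of 10000 to 20000 UMIs, gated anew, the ratio of CD150-high CD48-low to the reference gate for all 39 genes was 1.25 in suffix 1 and 1.49 in suffix 2. The part of cycling in these ratios was not tested. In suffix 1 the ratios of both CD48-low gates turned when cells were kept only above 2500 genes and below 5% mitochondrial UMIs, to 0.832 and 0.817, with 20 and 21 cells left in these gates. The slight excess of CD150-high CD48-high in suffix 1 lay on the other side of 1 with gates at the median tag (0.969), with a centred log ratio of the tags (0.934) and without the 1% of cells richest in these genes (0.996). In suffix 2 it did so with gates at the median tag (0.994).

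**Figure D2:**
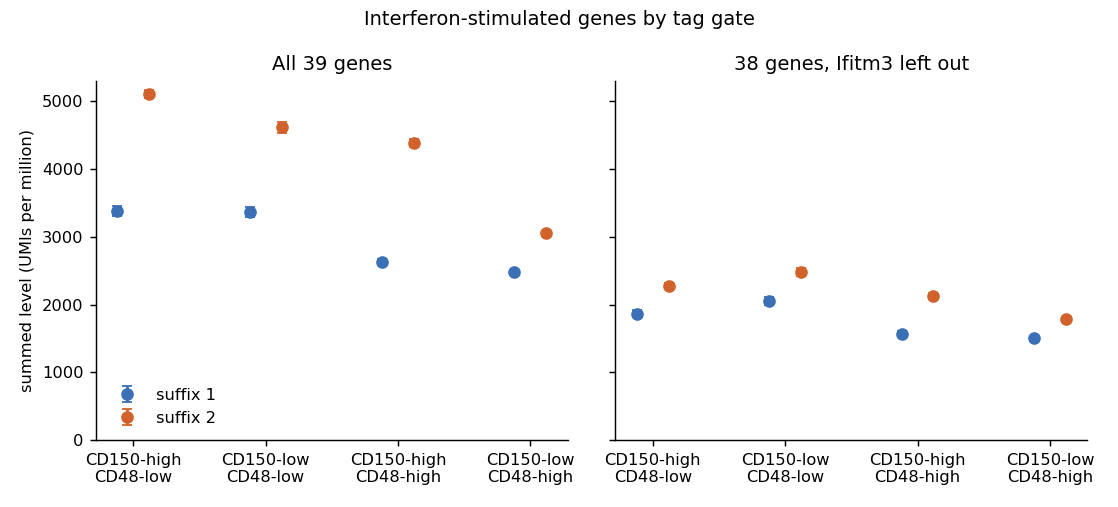
Summed level in CPM (vertical axis, from 0) of all 39 genes (left) and of the 38 without Ifitm3 (right) in the 4 tag gates, for suffix 1 (blue) and suffix 2 (orange). Points are single libraries and bars are 95% Poisson intervals, mostly smaller than the points. With Ifitm3 the CD150-high CD48-low point of suffix 2 is the highest at 5094 CPM, and without it CD150-low CD48-low is the highest gate in both suffixes. This order was lost without the 5% of cells richest in those 38 genes, a removal that cannot decide it.

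Single genes were called where the ratio of levels, with 5 CPM added to each, reached 1.5-fold in the same direction in both suffixes. Higher in CD150-high CD48-low than in the reference gate were 8 of the 37 genes, against 5.34% of all 9910 genes at this level or above, and lower were 0, against 7.2%. CD150-low CD48-low had 9 of 37 higher, against 2.72%, and 0 lower, against 4.82%. CD150-high CD48-high had 0 of 37 higher or lower, against 2.29% and 1.26%. The median log2 ratio (with 5 added) of the 37 genes was 0.27 and 0.19 in CD150-high CD48-low, beside -0.02 and -0.07 over all genes, and 0.41 and 0.40 in CD150-low CD48-low, beside -0.01 and -0.03.

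The calls depended on the cells used. In CD150-high CD48-low there were 2 (Rsad2 and Iigp1) within 10000 to 20000 UMIs per cell, against 3.63% of all genes in the same fit. When cells were kept only above 2500 genes and below 5% mitochondrial UMIs they were 2, against 6.61% of all genes. With a centred log ratio of the tags they were 2, against 3.93%, and at 2-fold 1, against 1.99%. In these 4 settings the share of the 37 genes was near that of all genes. Iigp1 was called with every one of these except the cell filter. Without the 1% of cells richest in the set there were 5 calls, against 5.34% of all genes, and without the richest 5% 4 (Isg20, Rsad2, Iigp1 and Ifitm3), against 5.21%.

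In CD150-low CD48-low the 9 calls became 1, 1 and 1 with the stricter cell filter, gates at the median tag and the centred log ratio, against 2.49%, 2.61% and 2.74% of all genes. Each time the gene was Iigp1, and the count was near the share of all genes. Within 10000 to 20000 UMIs per cell there were 3 (Ifit3, Rsad2 and Iigp1), against 0.957%, and at 2-fold 2 (Ifit3 and Iigp1), against 0.444%. Without the richest 1% of cells there were 4 (Isg20, Igtp, Irgm2 and Iigp1), against 2.51%, and without the richest 5% 2 (Isg20 and Iigp1), against 2.60%. Iigp1 was called in all of these settings.

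The GTPases of the GBP and IRG families, which attack the vacuoles of intracellular pathogens, had a larger ratio than the regulators, the sensors or the effectors other than Ifitm3. Their sum was 586, 561, 435 and 378 CPM in suffix 1 and 783, 877, 695 and 535 in suffix 2. The ratio of CD150-high CD48-low to the reference gate was 1.55 (1.46 to 1.65) in suffix 1 and 1.46 (1.41 to 1.51) in suffix 2, and 4 of 8 were called there, against 5.34% of all genes. Of the 4, Iigp1 alone was called within the depth range, with the centred log ratio, at 2-fold and without the richest 5% of cells, and Irgm2 alone with the stricter cell filter. By comparison the regulators of the pathway had 1.08 (0.982 to 1.18) in suffix 1 and 1.04 (0.980 to 1.11) in suffix 2, the sensors and the OAS family 1.05 (0.953 to 1.14) in suffix 1 and 1.08 (1.02 to 1.14) in suffix 2, and the effectors without Ifitm3 1.17 (1.12 to 1.23) in suffix 1 and 1.28 (1.24 to 1.32) in suffix 2. With Ifitm3 the effectors had 1.39 (1.35 to 1.43) in suffix 1 and 1.87 (1.84 to 1.90) in suffix 2, in suffix 2 above the GTPases. The sum of the GTPases was not recomputed without Iigp1, the GTPase with the largest ratio. Of the 14 regulators and sensors 0 were called in CD150-high CD48-low, which at 5.34% of all genes is near the background. The sensor Ifih1 was called with the stricter cell filter and with gates at the median tag.

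Iigp1, an IRG GTPase that breaks up pathogen vacuoles, had the largest ratio of CD150-high CD48-low to the reference gate over both suffixes. Its level was 92.4, 104, 59.3 and 37.9 CPM in suffix 1 and 159, 157, 119.7 and 65.5 in suffix 2. All 3 other gates lay above the reference gate in both suffixes, and the ratio of CD150-high CD48-low was 2.44 (2.08 to 2.85) in suffix 1 and 2.42 (2.23 to 2.63) in suffix 2. Removal of the 5% of cells richest in the other genes left 2.51 (2.07 to 3.01) in suffix 1 and 2.09 (1.89 to 2.30) in suffix 2. Irgm2, a regulator of the other IRG proteins, was at 26.6, 26.1, 14.2 and 13.5 CPM in suffix 1 and 32.5, 32.6, 24.1 and 16.0 in suffix 2. Its 2 CD48-low gates were nearly level with each other and about as far above the reference gate in both suffixes, with a ratio of 1.97 (1.46 to 2.63) in suffix 1 and 2.03 (1.69 to 2.42) in suffix 2 for CD150-high CD48-low.

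Gbp2 and Gbp7, guanylate-binding proteins that coat pathogen membranes, were called in CD150-high CD48-low. Gbp2 had 63.5, 51.8, 46.2 and 35.7 CPM in suffix 1 and 95.1, 102, 85.5 and 59.7 in suffix 2. Gbp7 had 106, 91, 80.6 and 63.8 CPM in suffix 1 and 133, 158, 123 and 84.3 in suffix 2. For both the reference gate was the lowest in each suffix, and the CD48-low gates changed places between the suffixes. Igtp (Irgm3) had 53.3, 69.3, 43.6 and 35.5 CPM in suffix 1 and 92.1, 133, 86.6 and 66.1 in suffix 2, highest in CD150-low CD48-low, where alone it was called with a ratio of 1.95 (1.64 to 2.31) in suffix 1 and 2.01 (1.79 to 2.24) in suffix 2. Gbp3, by contrast, had 35.5, 32.1, 27.9 and 28.6 CPM in suffix 1 and 53.4, 53.8, 49.7 and 50.7 in suffix 2, with a ratio of 1.24 (0.969 to 1.58) in suffix 1 and 1.05 (0.923 to 1.2) in suffix 2 for CD150-high CD48-low, within counting error of 1. Ifi47, the most abundant GTPase, had 122, 108, 98.2 and 101 CPM in suffix 1 and 137, 141, 127 and 122 in suffix 2, with a ratio of 1.21 (1.06 to 1.38) in suffix 1 and 1.12 (1.04 to 1.22) in suffix 2 for CD150-high CD48-low. The remaining GTPase, Irgm1, had ratios of 1.40 (1.19 to 1.63) in suffix 1 and 1.15 (1.03 to 1.28) in suffix 2 for CD150-high CD48-low.

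**Figure D3:**
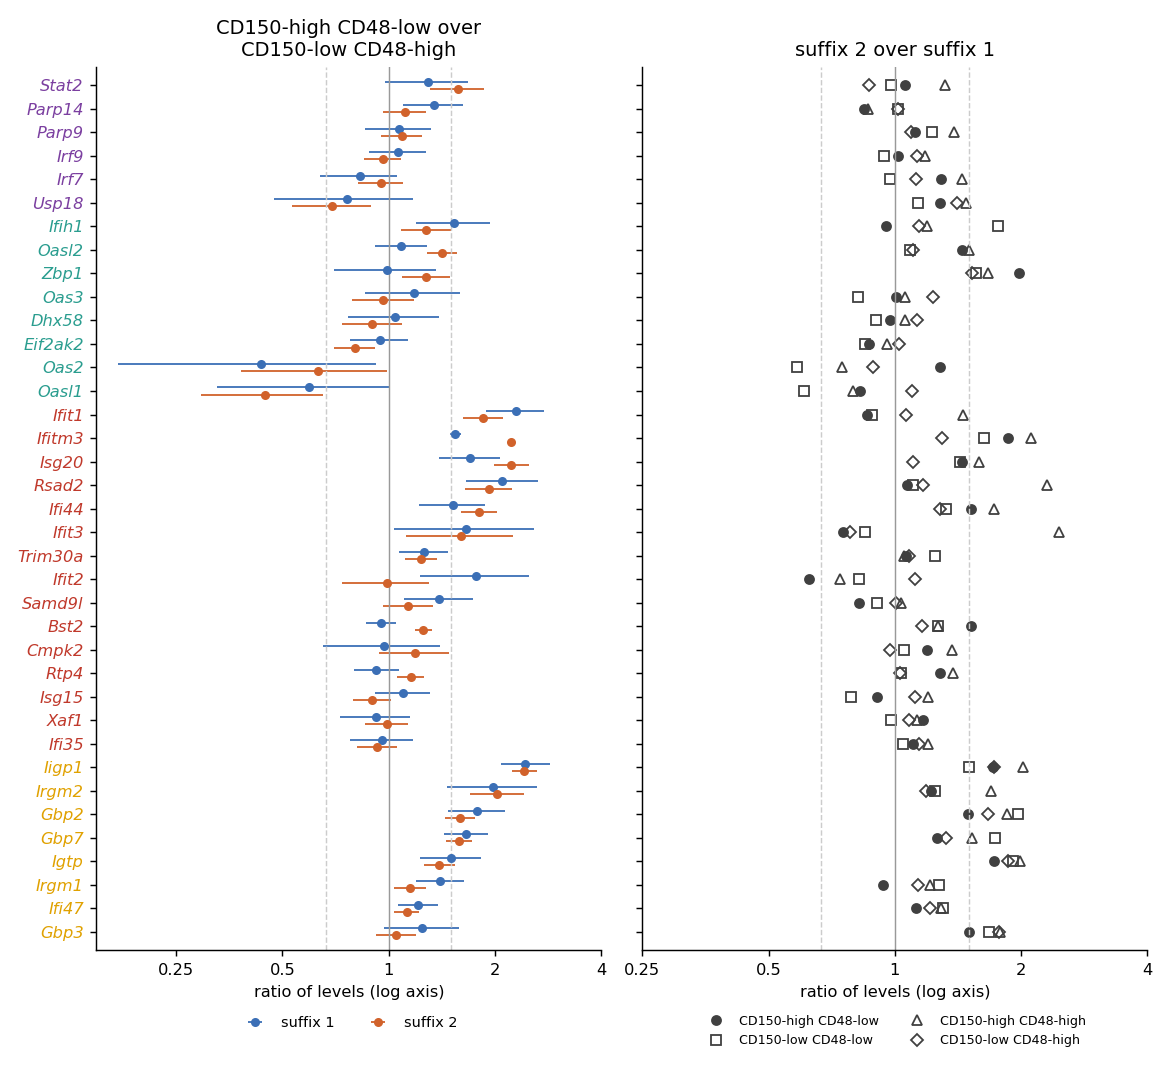
Ratios of levels (log axis) for the 37 genes with at least 5 CPM, by role (name colours: purple regulators, green sensors and OAS, red effectors, yellow GTPases). Left, CD150-high CD48-low over CD150-low CD48-high with 95% counting intervals for each suffix. Right, suffix 2 over suffix 1 in each gate. Dashed lines mark 1.5-fold. Iigp1 lies near 2.4 in both suffixes on the left, and Oasl1 and Oas2 lie below 1.

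Among the effectors, 4 of the 15 at 5 CPM or more were called in CD150-high CD48-low (Ifit1, Isg20, Rsad2 and Ifitm3), against 5.34% of all genes. In CD150-low CD48-low 5 were called (Ifit1, Ifit3, Isg20, Rsad2 and Ifi44), against 2.72%. Ifitm3 had 1508, 1303, 1061 and 976 CPM in suffix 1 and 2815, 2127, 2242 and 1266 in suffix 2. Its ratio in CD150-high CD48-low was 1.54 (1.49 to 1.60) in suffix 1 and 2.22 (2.18 to 2.27) in suffix 2, and without the 5% of cells richest in the other genes it was 1.54 (1.48 to 1.60) in suffix 1 and 2.23 (2.18 to 2.27) in suffix 2. Isg20, an exonuclease that degrades viral RNA, had 54.2, 56.2, 45.1 and 31.9 CPM in suffix 1 and 78.2, 80.6, 71.5 and 35.2 in suffix 2. In suffix 2 the 3 other gates were 2.03 to 2.29 times the reference gate.

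Ifit1, which binds RNA lacking the host cap methylation, had 65.3, 66.5, 32.7 and 28.5 CPM in suffix 1 and 56.0, 58.7, 47.5 and 30.3 in suffix 2. Both CD48-low gates lay well above the reference gate, with a ratio of 2.29 (1.89 to 2.76) in suffix 1 and 1.85 (1.62 to 2.11) in suffix 2 for CD150-high CD48-low. Few cells carried the ratio of suffix 1, since without the 5% of cells richest in the other genes it was 1.30 (0.921 to 1.80) in suffix 1 and 1.84 (1.54 to 2.18) in suffix 2. Rsad2 (viperin, an enzyme that makes a chain-terminating nucleotide) had 41.3, 42.3, 20.4 and 19.7 CPM in suffix 1 and 44.0, 46.9, 47.0 and 23.0 in suffix 2. In suffix 1 its CD48-low gates were above the other pair, and in suffix 2 all 3 gates were well above the reference gate. Its CD150-high CD48-low ratio without the richest cells was 1.75 (1.26 to 2.39) in suffix 1 and 2.12 (1.78 to 2.53) in suffix 2.

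Ifit3, a partner of Ifit1, had 11.1, 24.5, 6.66 and 6.69 CPM in suffix 1 and 8.35, 20.8, 16.4 and 5.22 in suffix 2. These levels rest on between 25 and 161 UMIs a gate, and the highest gate in both suffixes was CD150-low CD48-low, with a ratio of 3.67 (2.65 to 5.03) in suffix 1 and 3.99 (2.92 to 5.40) in suffix 2. Of the 410 windows of 91 bases at the 3' end of Ifit3, 26 (6.34%) were also present in its neighbour Ifit3b, so some reads could not be placed. No other gene of the set shared any window of this length with another gene. The cDNA reads of the study were shorter than these windows. Sharing at the read length could be larger and was not measured. Ifit2, a further family member, had 18.2, 18.6, 20.4 and 10.3 CPM in suffix 1 and 11.4, 15.3, 15.1 and 11.5 in suffix 2. Its gates were in a different order in the suffixes, and its ratio for CD150-high CD48-low was 1.76 (1.23 to 2.49) in suffix 1 and 0.990 (0.740 to 1.30) in suffix 2.

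The other abundant effectors differed less between the gates. Isg15, the ubiquitin-like modifier, had 63.9, 86.3, 61.4 and 58.1 CPM in suffix 1 and 58.1, 67.7, 73.6 and 64.8 in suffix 2. Bst2 had 193, 201, 186 and 203 CPM in suffix 1 and 294, 255, 237 and 235 in suffix 2, with its highest gate CD150-high CD48-low in suffix 2 and the reference gate in suffix 1. Rtp4 had 91.9, 99.7, 74.1 and 99.5 CPM in suffix 1 and 118, 103, 102 and 102 in suffix 2. Trim30a, a TRIM protein that limits innate signalling, had 80.4, 86.7, 76.5 and 63.8 CPM in suffix 1 and 85.3, 108, 80.3 and 68.9 in suffix 2, and Ifi35 48.4, 57.4, 50.9 and 50.4 CPM in suffix 1 and 53.5, 60.1, 61.0 and 57.7 in suffix 2. None of these 5 reached 1.5-fold in CD150-high CD48-low in both suffixes.

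Among the sensors, Oasl1 and Oas2 lay below the reference gate in CD150-high CD48-low. Oasl1, an OAS-like protein that represses the translation of Irf7, had 6.66, 10.3, 10.7 and 11.2 CPM in suffix 1 and 5.51, 6.25, 8.55 and 12.4 in suffix 2. Its ratio for CD150-high CD48-low was 0.593 (0.326 to 1.0) in suffix 1 and 0.446 (0.294 to 0.651) in suffix 2, on 15 and 29 UMIs in that gate, the smallest of the set over both suffixes once 5 CPM was added. It passed 1.5-fold in both suffixes only with 1 CPM added in place of 5, with the stricter cell filter or within 10000 to 20000 UMIs per cell, against 8.71%, 3.93% and 3.87% of all genes lower there in the same settings. Oas2, which makes the second messenger that activates RNase L, had 3.11, 10.7, 6.02 and 7.14 CPM in suffix 1 and 3.99, 6.25, 4.5 and 6.32 in suffix 2, on as few as 7 UMIs. Oasl2, the most abundant of this role, had 69.7, 95, 58.2 and 64.2 CPM in suffix 1 and 101, 103, 87.5 and 71.1 in suffix 2, highest in the CD48-low gates of both suffixes.

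Eif2ak2 (PKR), the kinase that stops translation on double-stranded RNA, had 56.4, 70.5, 62.1 and 59.7 CPM in suffix 1 and 49.0, 59.7, 59.4 and 61.0 in suffix 2. Its ratio for CD150-high CD48-low was 0.944 (0.779 to 1.14) in suffix 1 and 0.803 (0.702 to 0.915) in suffix 2. Of the remaining sensors, Ifih1 (MDA5) had 1.53 (1.19 to 1.94) in suffix 1 and 1.28 (1.08 to 1.5) in suffix 2, and Zbp1, Dhx58 and Oas3 had ratios between 0.899 and 1.28.

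Among the regulators Usp18, the isopeptidase that removes Isg15 and holds back the type I receptor, was lower in CD150-high CD48-low. Its levels were 10.2, 14.6, 11.0 and 13.4 CPM in suffix 1 and 13.1, 16.7, 16.2 and 18.9 in suffix 2, and its ratio was 0.760 (0.473 to 1.17) in suffix 1 and 0.692 (0.531 to 0.889) in suffix 2, so that the interval held 1 in suffix 1 and lay below 1 in suffix 2. Irf7, the factor that amplifies type I interferon production, had 32.4, 53.0, 29.2 and 39.2 CPM in suffix 1 and 41.8, 51.8, 42.3 and 44.0 in suffix 2, highest in CD150-low CD48-low in both suffixes. Parp14, an ADP-ribosyltransferase, had 54.2, 55.0, 50.3 and 40.4 CPM in suffix 1 and 45.8, 55.9, 43.4 and 41.1 in suffix 2. Stat2 was the only regulator called, in CD150-low CD48-low, with a ratio of 1.65 (1.31 to 2.07) in suffix 1 and 1.86 (1.5 to 2.30) in suffix 2, and Irf9 and Parp9 had ratios between 0.963 and 1.09 in CD150-high CD48-low.

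The genes of the pathway outside the set were counted by the same call. Of 27 ligands, receptors, kinases, factors, restraints and Isg15-conjugating enzymes, 21 reached 5 CPM. In CD150-high CD48-low 2 of 21 were higher (Socs1 and Uba7), against 5.34% of all genes, and 2 lower (Ifnar2 and Irf8), against 7.2%. These counts are near the share of all genes and are no result about the pathway, and the levels of the called genes are given as a description. Uba7, the activating enzyme of Isg15 conjugation, had 151, 71.2, 90.9 and 50.7 CPM in suffix 1 and 291, 199, 258 and 73.9 in suffix 2. Socs1, a feedback inhibitor of the Jak kinases, had 22.6, 20.6, 13.3 and 11.2 CPM in suffix 1 and 40.1, 33.3, 31.3 and 15.5 in suffix 2. Both were lowest in the reference gate in each suffix. Ifnar2 had 40.8, 59.0, 53.3 and 74.5 CPM in suffix 1 and 42.0, 54.9, 48.8 and 71.6 in suffix 2, with the reference gate highest, and Irf8, a factor of monocyte and dendritic cell progenitors, 3.11, 9.89, 7.09 and 47.2 CPM in suffix 1 and 6.65, 6.25, 7.42 and 56.9 in suffix 2.

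In CD150-low CD48-low 2 of 21 were higher (Socs1 and Herc6), against 2.72%, and 1 lower (Irf8), against 4.82%. In CD150-high CD48-high 1 was higher (Uba7), against 2.29%, and 1 lower (Irf8), against 1.26%. The 5 ligands Ifna4, Ifnb1, Ifng, Ifnk and Ifnl2 had 0 UMIs in all kept cells, which allows up to 0.042 CPM for each (3 counts over the pooled depth).

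Between the suffixes, levels were higher in suffix 2. For all kept cells the ratio of suffix 2 to suffix 1 was 1.33 (1.32 to 1.34) for the 39 genes and 1.21 (1.19 to 1.22) without Ifitm3. Over the 4 gates it was 1.51, 1.37, 1.66 and 1.23 with Ifitm3 and 1.22, 1.21, 1.36 and 1.18 without. No gate lay below 1, and the median log2 ratio of the 37 genes was 0.11 to 0.36 in the gates, where that of all genes was -0.11 to -0.04. Age, library and preparation cannot be told apart in this comparison, and the median tag counts above show that the gates differ between the suffixes as well.

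Igtp alone of the 37 genes was at least 1.5-fold higher in suffix 2 in all 4 gates (5 CPM added), against 0.535% of all genes, and 0 of 37 were lower in all 4, against 0.283%. Its ratios were 1.73, 1.92, 1.99 and 1.86. Without the 5% of cells richest in the other genes they were 1.90, 2.05, 2.16 and 1.97, with the lowest bound at 1.49, and Iigp1 was then called too. At 2-fold or with the stricter cell filter no gene was called, against 0.182% and 0.393% of all genes. Ifitm3 had 1.87, 1.63, 2.11 and 1.30, so that only the reference gate kept it from being called. Iigp1 had 1.72, 1.51, 2.02 and 1.73, Gbp2 1.5, 1.97, 1.85 and 1.67 and Gbp3 1.5, 1.68, 1.78 and 1.77. The GTPases as a role had 1.34, 1.56, 1.60 and 1.42, against 1.05, 1.02, 1.2 and 1.09 for the regulators.

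The genes at the other end were below or near 1. Ifit2 had 0.626, 0.822, 0.738 and 1.12, Oasl1 0.827, 0.608, 0.796 and 1.10 and Oas2 1.28, 0.585, 0.748 and 0.885. Eif2ak2 had 0.869, 0.848, 0.956 and 1.02 and Parp14 0.845, 1.02, 0.863 and 1.02. For each of these 5 genes the gates did not all lie on the same side of 1. Ifit3, with 0.753, 0.849, 2.47 and 0.780, had its excess in a single gate, CD150-high CD48-high, where the ratio was 1.06 (0.374 to 3.03) once the cells richest in the other genes were removed.

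The UMIs of the set were unevenly spread over cells, but a small share of cells did not hold most of them. To compare cells at the same depth, each was thinned at random to 9000 UMIs, which left out 96 cells of suffix 1 and 147 of suffix 2 and kept 1428 and 2397. The loss was uneven over the gates. CD150-low CD48-low lost 34 cells in suffix 1 and 48 in suffix 2, a larger share of its cells than the reference gate, which lost 33 and 59. The median cell then held 21 UMIs of the 39 genes in suffix 1 and 30 in suffix 2, with extremes of 1 to 374 and 2 to 387. The variance over cells was 21.3 and 15.4 times the mean. The thinned count of the 39 genes had a Pearson r of -0.19 and -0.25 with the depth of the cell before thinning.

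The highest 1% of cells held 7.77% of the UMIs in suffix 1 and 5.13% in suffix 2, the highest 5% held 18.9% and 14.4%, and the highest 10% 27.9% and 23.2%. To reach 50% of the UMIs, 27.1% and 30.3% of the cells were needed. Without Ifitm3 the highest 5% held 23.5% and 18.6%. The upper 50% of the cells held 71.6% and 69.5%.

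**Figure D4:**
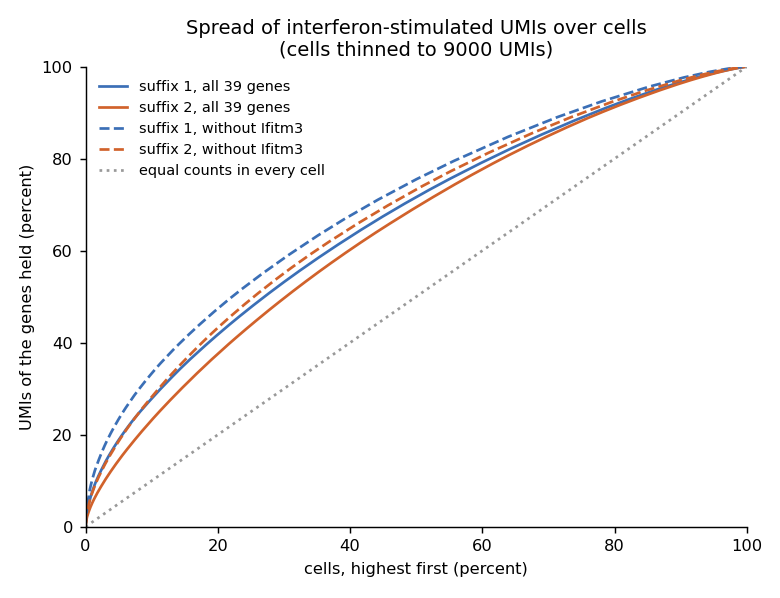
Cumulative percent of the UMIs of the set (vertical axis) held by the cells, ordered from the highest count (horizontal axis, percent of cells), for suffix 1 (blue) and suffix 2 (orange), with all 39 genes (solid) and without Ifitm3 (dashed), each cell thinned to 9000 UMIs. The dotted line is an equal count in every cell. The solid curves pass 50% of the UMIs at 27.1% and 30.3% of the cells.

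At 3 times the median of its suffix or more were 53 of 1428 cells in suffix 1 (3.71%, 2.79 to 4.83%), holding 15.9% of the UMIs of the set, and 42 of 2397 in suffix 2 (1.75%, 1.27 to 2.36%), holding 7.27%. The cut falls in a continuous range, with 56 and 70 cells within 20% of it. Without Ifitm3 the shares were 6.79% and 3.96%. In suffix 1 the share was 5.77%, 7.06%, 3.40% and 2.84% over the gates, and in suffix 2 3.03%, 2.97%, 3.78% and 0.964%, so the reference gate had the smallest share in both. The intervals of CD150-high CD48-low and the reference gate overlapped in each suffix, at 2.67 to 10.7% and 1.85 to 4.17% in suffix 1 and at 1.52 to 5.36% and 0.541 to 1.59% in suffix 2. Those of CD150-low CD48-low (3.70 to 12.01% in suffix 1, 1.10 to 6.35% in suffix 2) overlapped it too. That of CD150-high CD48-high overlapped it in suffix 1, at 1.38 to 6.88%, and lay above it in suffix 2, at 1.74 to 7.06%. An overlap of intervals does not show that the shares were equal.

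These cells had UMIs of a median of 25 of the 39 genes in suffix 1 and 26 in suffix 2, against 9 and 11 in the other cells, which follows in part from choosing them on these genes. Their depth before thinning, a median of 13353 and 13200 UMIs, was below the 15679 and 15250 of the other cells. Markers of other cell types were counted in them. The 5 T cell markers summed to a median of 0 UMIs with 0 genes detected in suffix 1 and 1 (Trac, a single UMI) in suffix 2. Of the other lists, 2 of 4 NK cell genes were detected in each suffix (not Ncr1 and Gzma), 2 of 4 plasma cell genes (not Jchain and Mzb1), and 2 and 1 of 5 plasmacytoid dendritic cell genes (not Siglech, Cox6a2 and Klk1 in either). Of the monocyte and macrophage list 4 and 2 of 6 genes were detected (not Adgre1 and Ly6c2 in either), and of the neutrophil list 2 and 1 of 5 (not Ngp, Ltf and Camp in either). Of the megakaryocyte list 3 of 4 genes were detected in each suffix (not Ppbp), and of the endothelial list 2 of 3 (not Cdh5). The median sum of each of these lists was between 0 and 2 UMIs in these cells as in the others, and their part in the result was not tested. Of the markers of the sort, Ly6a (Sca-1), itself an interferon-inducible gene, had a mean of 7.79 and 11.5 UMIs in these cells and 2.19 and 3.43 in the others. Kit had a mean of 1.09 and 0.857 UMIs in these cells and 1.3 and 1.24 in the others, a ratio of 0.84 (0.635 to 1.09) and 0.691 (0.483 to 0.959). The 6 genes of the multipotent progenitor list had a median of 6 and 0 UMIs against 7 and 4, the stem cell list 7 and 7 against 6 and 5, and the cycling list had a median of 0 in both kinds of cell and a mean of 2.34 and 0.81 UMIs against 4.5 and 3.54.

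Whether the genes were high in the same cells was measured with genes that did not choose the cells. The 39 genes were split by their place in the list, odd and even. In the 5% of cells with the most UMIs of the 20 odd genes, the 19 even genes averaged 4.40 (4.16 to 4.65) times as many UMIs as in the other cells in suffix 1 and 3.39 (3.25 to 3.54) times in suffix 2. The median such cell had 16 UMIs of the even genes in both suffixes, against 4 and 5. With the sets exchanged the ratios were 3.83 and 2.59, and they were 5.77 and 4.02 when Ifitm3 was left out of the odd genes then measured.

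The roles were high in the same cells as well. In the 5% of cells richest in effectors (Ifitm3 left out), the GTPases were 4.34 and 2.95 times as abundant as in the other cells, the regulators 5.02 and 3.34 times, and the sensors and OAS family 5.45 and 4.03 times, in suffix 1 and suffix 2. In cells chosen on the GTPases the effectors were 4.98 and 3.1 times as abundant. Across cells, the thinned count of Ifitm3 had a Pearson r of 0.58 and 0.43 with that of the other 38 genes (1428 and 2397 cells, which share a library).

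Each gene was then compared in the 5% of cells with the most UMIs of the other genes, Ifitm3 never choosing. Of the 37 genes, 35 were at least 2-fold higher in these cells in both suffixes, against 0.679% of 9871 other genes measured in the cells chosen on all 38. The median ratio of the 37 was 5.31 and 3.73, and that of the other genes 0.968 and 0.982. The genes below 2-fold in a suffix were Irf9, with 1.95 (1.51 to 2.48) in suffix 1 and 1.53 (1.25 to 1.87) in suffix 2, and Ifitm3, with 2.36 (2.24 to 2.49) in suffix 1 and 1.79 (1.72 to 1.85) in suffix 2.

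Ifit3, Ifit3b, Mx1 and Ifit1 had the largest shares of their UMIs in these cells in both suffixes. Ifit3 was 81.9-fold higher in suffix 1 and 66.6-fold higher in suffix 2 in these cells, which were 5% of all and held 81.3% and 77.8% of its UMIs. It was detected in 3.29% and 3.25% of the thinned cells. Ifit1 was 28.2-fold higher in suffix 1 and 13.9-fold higher in suffix 2, with 59.9% and 42.3% of its UMIs there. For the sparse Ifit3b and Mx1 the shares were 86.4% and 74.1%, and 66.2% and 59.8%. The cells richest in the other genes thus held over 50% of the UMIs of all 4 in suffix 1 and of all but Ifit1 in suffix 2. How far each gene's UMIs were gathered in cells chosen on that gene itself was not measured. Ifit2 was less confined than these, 7.66-fold higher in suffix 1 and 6.66-fold higher in suffix 2, with 28.9% and 26.0% of its UMIs there.

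Further down the order, Isg15 had 46.1% and 30.0% of its UMIs in these cells, with ratios of 16.1 (14.0 to 18.5) in suffix 1 and 8.14 (7.26 to 9.12) in suffix 2. Rsad2 had 46.4% and 32.3%, with ratios of 16.3 (13.2 to 20.1) in suffix 1 and 9.04 (7.70 to 10.6) in suffix 2, and Usp18 47.3% and 21.7%, with ratios of 16.9 (12.6 to 22.8) in suffix 1 and 5.26 (4.08 to 6.72) in suffix 2. For all 3 the share was larger in suffix 1. Zbp1, the sensor of Z-form nucleic acids, was 12.1-fold higher in suffix 1 and 7.25-fold higher in suffix 2 and Iigp1 10.1-fold higher in suffix 1 and 7.39-fold higher in suffix 2. Ifitm3 was near the other end, above Irf9 in both suffixes and Ifi35 in suffix 1, with a UMI in 99.6% and 99.7% of the thinned cells and 11.1% and 8.61% of its UMIs in the richest 5%. Bst2 was 2.51-fold higher in suffix 1 and 2.01-fold higher in suffix 2 and Ifi35 2.35-fold higher in suffix 1 and 2.05-fold higher in suffix 2. No cells known to lack these genes were defined here, so the part of free RNA in the shares of cells with a UMI was not measured.

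**Figure D5:**
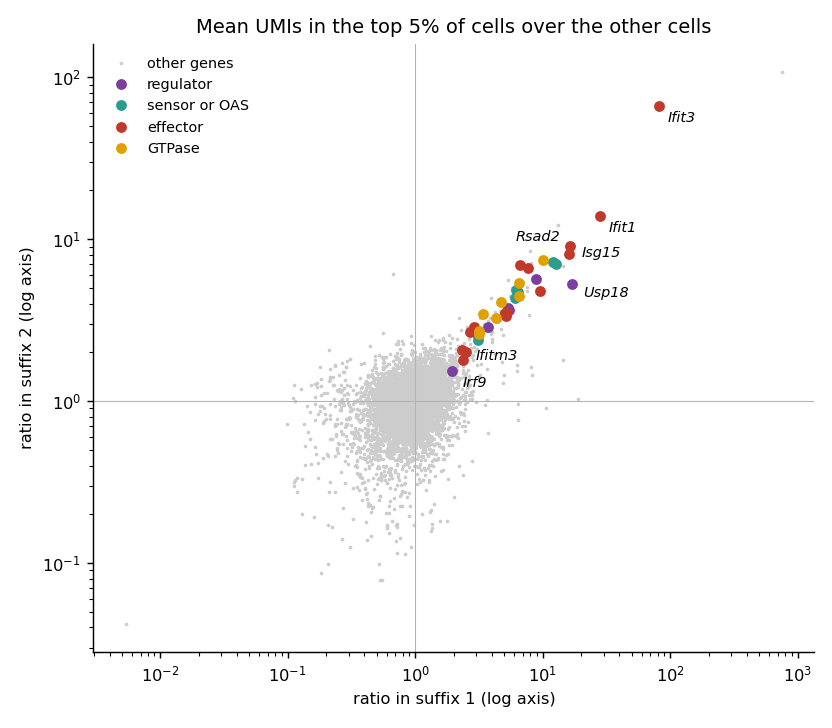
Mean UMIs in the 5% of cells with the most UMIs of the set over the mean in the other cells, suffix 1 (horizontal, log axis) against suffix 2 (vertical, log axis), cells thinned to 9000 UMIs. Large points are the 37 genes, coloured by role and each left out of the choice of its cells. Grey points are 9819 other genes, with 52 at 0 in the top cells of a suffix not drawn. The genes of the set run from Irf9 at 1.95 and 1.53 to Ifit3 at 81.9 and 66.6, and the grey points centre near 1.

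The genes with an ISRE core in the promoter did not have the higher ratios in the richest cells. Their median ratio in the richest cells was 4.73 and 3.73 (17 genes at 5 CPM or more), and that of the 12 with a promoter but no match was 5.80 and 4.11. Ifit1, Ifit3, Isg15 and Rsad2, shown above with 1 to 3 matches, were at the confined end, but so was Oasl1 without a match, 12.7-fold higher in suffix 1 and 7.0-fold higher in suffix 2, and Ifitm3 with 2 matches was near the even end. With a GAS core the median was 3.38 and 3.45 (9 genes) and without 5.69 and 4.21 (20 genes).

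Outside the set, 67 genes were at least 2-fold higher in the richest cells in both suffixes. The highest was Cxcl10, a chemokine induced by interferon, at 749.6-fold and 108.2-fold, and the guanylate-binding protein Gbp4 was at 13.2-fold and 12.2-fold. Among the genes whose thinned counts were most like those of the set (among the 10 highest Pearson r of each suffix) were Gm4951 (r = 0.70 and 0.56), Slfn5 (0.59 and 0.46), Gbp4 (0.53 and 0.52), Ly6a (0.50 and 0.50), Herc6 (0.50 and 0.47) and Ly6e (0.43 and 0.42), over 1428 and 2397 cells at equal depth. Ly6a encodes Sca-1, on which the cells were sorted.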

How the data were processed

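LSK cells of 4 young and 4 old mice were profiled by 10x 3' CITE-Seq, 1 library per age. The deposited matrix holds UMI counts per gene and cell, which the authors made with Cell Ranger 3.1.0 (GRCm38/mm10 in the submitters' processing notes) and normalized between libraries by its aggregation step, so depths are those after it. The tag values, a score deposited on a log10 scale, were made by the authors with CITE-seq-Count, and 10 to the power of each value gave the tag count. The members, lists and named genes were chosen with earlier results of these data known. Named genes are the 8 of the highest level, the 6 largest and 6 smallest CD150-high CD48-low to reference ratios, the 5 largest and 5 smallest suffix ratios, and the 5 of the largest variance to mean ratio. Cells with under 10% mitochondrial UMIs and over 1500 genes were kept, 27345371 UMIs in suffix 1 and 44021962 in suffix 2. Levels are summed UMIs of a gene per 1e6 summed UMIs of the same cells (CPM). No doublet caller was run, and the study names no doublet removal. Leaving out the deepest 2% of cells was tried as an alternative. Computations used Python 3.11.15, NumPy 2.4.6, SciPy 1.17.1 and pandas 2.3.3. The call was tested on simulated counts of 9910 genes for CD150-high CD48-low against the reference gate: of 100 genes made 2-fold higher 80 were called, of 100 made 2-fold lower 76, and of 9710 unchanged genes 0. The simulated counts held counting error alone, without the spread between cells seen in the data. They do not show how often that spread leads to a call. Intervals and floors cover counting error only. Values without Ifitm3, within 10000 to 20000 UMIs per cell and without the richest 5% of cells, and the alternatives for CD150-low CD48-low calls, were chosen after seeing the data. The promoters are RefSeq's (GRCm38.p6), and the 9 genes with none there were Oas2, Mx1, Usp18, Dhx58, Iigp1, Zbp1, Rtp4, Parp9 and Parp14. Some genes of the lists are not reported here.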

Additional observations from a re-analysis of the deposited data

Results flagged for a closer look

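The 82 kept cells that had no tag values, and so entered no gate, had 4004 CPM of the 39 genes (3872 to 4141, counting error only), above the 3213 (3200 to 3226) of all kept cells. This was a signal in cells outside the gate comparisons, and its cause was not tested. The 620 cells outside the cell filter had 2908 (2847 to 2969).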

How the results depend on the processing

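Of 205 recomputed values, 89 stayed within the interval of the reported value (or within 1.5 times a count), 110 moved and 6 lay on the other side of 1. The causes were not tested beyond what each alternative itself removes. No paired analysis was possible because each age is 1 library and the labels share no replicate to pair. Depth limits Ifit3b, Mx1, Oas2 and Oasl1, which had 2 to 50 UMIs in some gates, and the stricter cell filter leaves 15 to 37 cells in each gate other than the reference. Each pair of values is for suffix 1 and suffix 2, and the 3 ratios are to the reference gate.

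With the stricter cell filter (over 2500 genes, under 5% mitochondrial UMIs) the ratios were 0.832 and 2.02 for CD150-high CD48-low, 0.817 and 1.37 for CD150-low CD48-low and 1.35 and 1.19 for CD150-high CD48-high, of which both CD48-low ratios of suffix 1 are reversed. Without the 3 highest genes (Ifitm3, Bst2 and Ifi47) they were 1.29 and 1.29 for CD150-high CD48-low, 1.45 and 1.46 for CD150-low CD48-low and 1.06 and 1.24 for CD150-high CD48-high. With gates at the median tag they were 1.26 and 1.63 for CD150-high CD48-low, 1.26 and 1.30 for CD150-low CD48-low and 0.969 and 0.994 for CD150-high CD48-high, and with the centred log ratio of the tags 1.24 and 1.60 for CD150-high CD48-low, 1.13 and 1.38 for CD150-low CD48-low and 0.934 and 1.59 for CD150-high CD48-high. Without the 1% of cells richest in the set they were 1.33 and 1.63 for CD150-high CD48-low, 1.22 and 1.40 for CD150-low CD48-low and 0.996 and 1.37 for CD150-high CD48-high, and without the richest 5% 1.32 and 1.64 for CD150-high CD48-low, 1.18 and 1.37 for CD150-low CD48-low and 1.02 and 1.39 for CD150-high CD48-high. As means over cells they were 1.28 and 1.54 for CD150-high CD48-low, 1.30 and 1.46 for CD150-low CD48-low and 1.04 and 1.38 for CD150-high CD48-high, without Ifitm3 1.24 and 1.27 for CD150-high CD48-low, 1.36 and 1.39 for CD150-low CD48-low and 1.04 and 1.19 for CD150-high CD48-high, and within 10000 to 20000 UMIs per cell 1.25 and 1.49 for CD150-high CD48-low, 1.2 and 1.29 for CD150-low CD48-low and 1.14 and 1.37 for CD150-high CD48-high. Without the deepest 2% of cells CD150-high CD48-low was 1.64 in suffix 2 and CD150-high CD48-high 1.01 in suffix 1. Without Ifit3, Ifit3b, Irgm2 and Iigp1, CD150-low CD48-low was 1.32 and 1.48.

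The ratio of suffix 2 to suffix 1 over all kept cells and in CD150-high CD48-low was 1.19 and 2.54 with the stricter filter, 1.2 and 1.19 without the 3 highest genes, 1.21 and 1.22 without Ifitm3, and 1.38 and 1.57 without the richest 5%. Over all kept cells it was 1.34 without the deepest cells and 1.35 without the richest 1%, and in CD150-high CD48-low 1.58 with the centred log ratio.

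The percent of UMIs in the top 5% of cells was 24.6 and 18.2 with the stricter filter, 25.8 and 20.3 without the 3 highest genes, 18.2 and 13.9 without Ifit3, Ifit3b, Irgm2 and Iigp1, 23.5 and 18.6 without Ifitm3, and 7.77 and 5.13 for the top 1%. In suffix 2 it was 15 at 6000 UMIs per cell and 14.9 without thinning. The percent of cells at 3 times the median was 5.70 and 5.50 with the stricter filter, 7.70 and 6.22 without the 3 highest genes, 6.79 and 3.96 without Ifitm3, and 1.26 and 0.375 at 5 times.

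The ratio of the even genes in cells chosen on the odd ones was 5.85 and 4.5 with the stricter filter, 4.96 and 3.78 without the 3 highest genes, 9.35 and 6.92 in the top 1%, 3.83 and 2.59 with the sets exchanged, and in suffix 2 3.60 without thinning and 3.58 without Ifitm3. Genes called higher in CD150-high CD48-low numbered 2 with the stricter filter, 2 with the centred log ratio, 5 and 4 without the richest 1% and 5%, 1 at 2-fold and 2 within the depth range. In CD150-low CD48-low, rerun after seeing the data, they numbered 1, 1 and 1 with the stricter filter, gates at the median and the centred log ratio, 4 and 2 without the richest 1% and 5%, 2 at 2-fold and 3 within the depth range. Genes called lower in CD150-high CD48-low numbered 1 (Oasl1) with the stricter filter, with 1 CPM added and within the depth range, against 3.93%, 8.71% and 3.87% of all genes. Genes higher in suffix 2 in all gates numbered 0 with the stricter filter, 2 with gates at the median, 3 with the centred log ratio, 2 and 2 without the richest 1% and 5%, 3 with 1 added and 0 at 2-fold, against 0.393%, 0.414%, 0.767%, 0.545%, 0.556%, 1.06% and 0.182% of all genes in the same order.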
